A study of Aspergillus nidulans with 4 samples.

Results

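The sugar transporter genes described here are 28 of the 10930 genes of *Aspergillus nidulans* listed in the deposited table. They were chosen by words in the function text of that table, which had to name transport or a permease together with a sugar, and 5 glucose transporter genes (AN5860, AN6669, AN8737, AN6923 and AN10891) were left out by the rule. The rule itself uses no measured value, although it was set with earlier results of these data known. The text of 26 of the 28 genes names transport of a sugar or of a nucleotide sugar, although for AN1085 (*sey1*) hexose transport stands beside a GTPase activity and the fusion of endoplasmic reticulum membranes. The other 2 entered through the words alone: AN11956 is described by endosomal and vacuolar transport and growth under glucose limitation, and AN7049 by ATP transport and the transfer of ethanolamine phosphate to mannose in glycosylphosphatidylinositol anchors. The function text rests mostly on orthologs or on predictions, so the substrates given below are putative.

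RNA-seq compared the strain with a deletion of *pkaA* (the Δ*pkaA* strain), which encodes the catalytic subunit of protein kinase A (PKA), with its parental strain (WT), with 2 samples for each strain. Both strains grew at 28°C and 250 rpm in rich medium with 2% glucose and 0.5% yeast extract, and mycelium was frozen after approximately 20 h in the main culture. The labels give the genotypes as parental strain and as PkaA kinase deletion, and no further allele. The deposited values are the mean normalized count of each gene in each strain, that is, read counts divided by a size factor of each library and averaged over the 2 libraries.

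Sugars enter fungal cells mainly through transporters of the major facilitator superfamily, proteins that span the plasma membrane many times and carry hexoses, pentoses or disaccharides inward by facilitated diffusion or together with protons. A different family, the nucleotide sugar transporters, works inside the cell and moves activated sugars such as GDP-mannose and UDP-galactose from the cytosol into the Golgi apparatus or the endoplasmic reticulum, where they are used to build glycans. In many fungi, the transcription of plasma membrane sugar transporters depends on which carbon source is present, and cyclic AMP and PKA belong to the pathways that report glucose to the cell.

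Because the deposited values are means, the reads of the single libraries were recovered from the steps between the values where this could be done. The 2 libraries of a strain are called a and b here, a being the one with the larger size factor, and they could not be tied to the replicate numbers of the labels. For 19 of the 28 genes the reads of all 4 libraries were recovered, and these genes were tested with limma, fitted to log2(value + 1) of 5620 genes with p-values adjusted by Benjamini-Hochberg over all of them. A gene was called higher or lower where its adjusted p was below 0.01 and its fitted fold was 2 or more. The other 9 genes, most of them of high mean, have a ratio of means but no test. The size factors were 1.02 and 0.982 for the Δ*pkaA* libraries and 1.04 and 0.960 for the WT libraries, so the depth of the libraries was similar. The deleted gene itself had 79 and 69 reads in the Δ*pkaA* libraries and 1892 and 1851 reads in the WT libraries. Of 4 hyphal marker genes (*actA*, *benA*, *gpdA* and *chsB*), 0 differed by 2-fold. Of 7 genes of conidiation, 3 were lower (*abaA*, *wA* and *rodA*) and 1 higher (*dewA*) in the Δ*pkaA* strain, with none of the 7 at 0. The means of *brlA* (69.5 against 67.2 in the WT), *wetA* (94.1 against 54.8) and *yA* (208 against 120) lay inside the 2-fold limit. The sum of means of the 7 genes was 709.1 against 1685, and *abaA* alone (134 against 951) gave most of this difference. The part of conidiating cells in the values below was not tested, and in such bulk samples fewer cells of a type and less RNA per cell cannot be told apart.

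The sugar transporter genes did not move together. Between the means, 8 of the 28 genes were higher by 2-fold or more in the Δ*pkaA* strain, 5 were lower by as much, and 15 lay inside this limit. The 2 highest ratios belonged to genes of disaccharide transport, and the 2 lowest to genes annotated as putative xylose transporters. Of all 9455 genes with an average of the strain means of at least 10, 16.3% were at least 2-fold higher and 16.4% at least 2-fold lower, that is, 32.7% in either direction, against 46.4% of the 28 genes. The median log2 ratio was 0.20 over the 28 genes, and it was 0.11 over the 26 genes whose text names transport of a sugar or nucleotide sugar, of which 7 were higher and 5 lower. The median size of the log2 ratio, without regard to its sign, was 0.88 for the 28 genes and 0.60 for all genes.

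In the limma fit, 6 of the 19 tested sugar transporter genes rose and 3 fell in the Δ*pkaA* strain, and 10 did not pass. The shares over all genes tested were 15.9% higher and 17.5% lower, or 33.4% in either direction, against 47.4% of the 19 genes. The libraries of the 2 strains did not overlap for 15 of the 19 genes, or 78.9%, and they did not overlap for 84.1% of all genes tested. Not overlapping was therefore no more frequent among the sugar transporter genes than elsewhere.

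**Figure D1:**
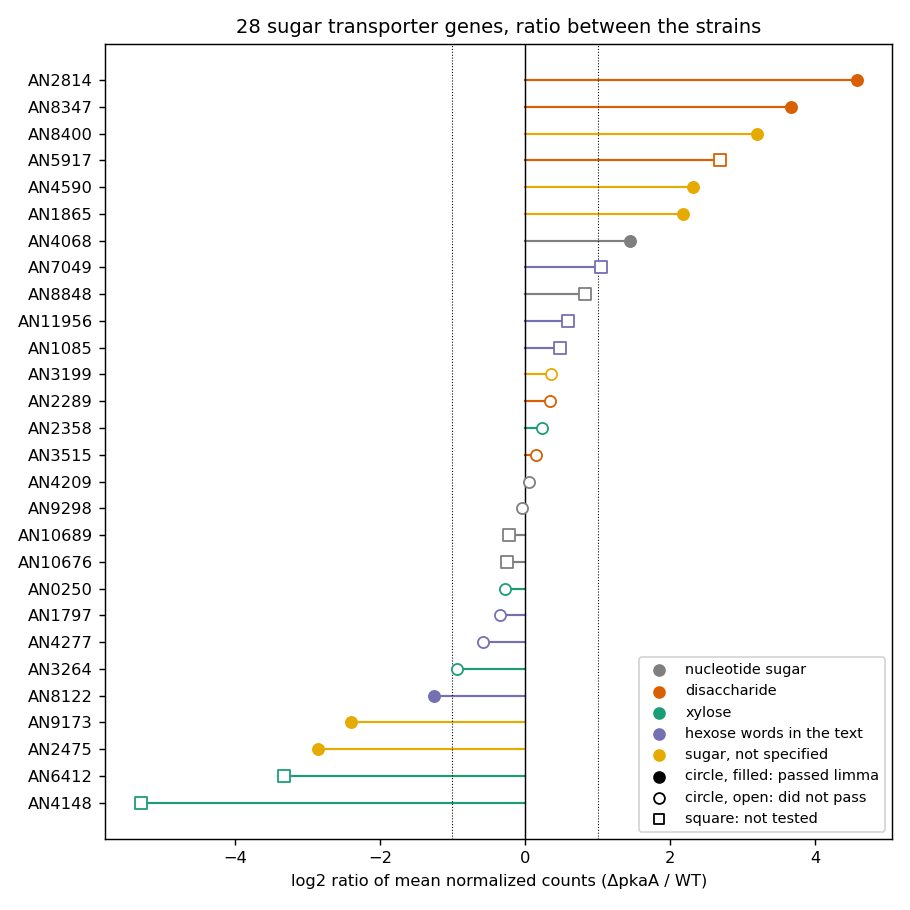
The log2 ratio of the mean normalized count of the ΔpkaA strain over the WT for each of the 28 genes, coloured by the substrate named in the function text, with dotted lines at 2-fold. Filled circles passed the limma test, open circles did not, and squares were not tested; the ratios run from −5.29 for AN4148 to 4.57 for AN2814, and the disaccharide genes all have a ratio above 0.

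Disaccharide transport was the annotation of 5 genes. For the pair whose orthologs transport cellobiose, the disaccharide released from cellulose, expression was low in the WT and rose in the Δ*pkaA* strain. AN2814 (chromosome VI, start 2731205 and stop 2733291 in the deposited table, plus strand) had normalized counts of 160 and 175 in the Δ*pkaA* libraries and of 5.74 and 8.33 in the WT libraries. The strains were far apart for this gene, but its WT values rest on 6 and 8 reads. The mean was 23.8-fold higher in the Δ*pkaA* strain, and in limma the log2 fold change was 4.41, the standard error (SE) 0.30 and the adjusted p 3.96e-05. AN8347 (chromosome V, start 192441 and stop 194330, plus strand) had normalized counts of 192 and 191 in the Δ*pkaA* libraries and of 12.4 and 17.7 in the WT libraries. Both Δ*pkaA* libraries were thus above both WT libraries, the mean was 12.7-fold higher, and the log2 fold change was 3.60 (SE 0.27, adjusted p = 5.69e-05, limma).

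The other 3 genes of this group are annotated with transport of alpha-glucosides, that is, maltose together with trehalose or sucrose. AN5917 (chromosome I, start 1820086 and stop 1822445, plus strand; maltose and trehalose) had a mean of 5777 in the Δ*pkaA* strain and normalized counts of 922 and 862 in the WT libraries. The Δ*pkaA* mean could not be split into libraries, so that the 6.48-fold difference was not tested. If the libraries of that strain differed by no more than 3-fold, the lower one held at least 2888, above both WT libraries. AN5917 overlaps *echA* on the opposite strand by 108 bases. The library kit does not mark the strand, so reads from the shared stretch cannot be told apart, and *echA* itself was lower in the Δ*pkaA* strain, with means of 1347 against 3339. The remaining genes did not pass. AN2289 (maltose and sucrose) had normalized counts of 1141 and 1081 in the Δ*pkaA* libraries and of 814 and 939 in the WT libraries, with a log2 fold change of 0.35 (SE 0.11, adjusted p = 0.0335, limma). AN3515 (maltose and trehalose) was little expressed in both strains, with 34.3 and 45.8 against 36.4 and 35.4, and its strains overlapped. The disaccharide genes therefore ranged from a log2 ratio of 0.16 to one of 4.57, with a median of 2.70.

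The annotation of a xylose transporter was carried by 5 genes, and none of them was higher at the 2-fold limit. AN6412 (chromosome I, start 267237 and stop 269280, minus strand) had means of 10313 in the Δ*pkaA* strain against 102974 in the WT, a 9.98-fold lower level in the absence of *pkaA*. Neither mean could be split, and there was no test. Were the libraries of a strain no more than 3-fold apart, the Δ*pkaA* libraries would lie between 5157 and 15470 and the WT libraries between 51487 and 154461, with no overlap. Per kilobase of gene, AN6412 had the highest mean of the 28 genes in both strains, and it ranked 28 of all listed genes in the WT and 568 in the Δ*pkaA* strain. AN4148 (chromosome II, start 1944647 and stop 1947775, minus strand) had normalized counts of 373 and 372 in the Δ*pkaA* libraries and a mean of 14562 in the WT. This was the largest difference of the 28 genes, 39.1-fold between the means. It was not tested either, but under the same assumption both WT libraries held at least 7281. By mean per kilobase, AN4148 ranked 2 of the 28 genes in the WT and 21 in the Δ*pkaA* strain.

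The other 3 putative xylose transporter genes were tested and did not pass. AN3264 just missed the 2-fold limit between the means (1.92-fold lower), with normalized counts of 865 and 599 in the Δ*pkaA* libraries and of 950 and 1862 in the WT libraries. The strains did not overlap, but both pairs of libraries were far apart, and the log2 fold change of −0.89 had an SE of 0.32 (adjusted p = 0.0462, limma). Without WT library a, it was −1.37 with an adjusted p of 7.62e-05 (limma), which passed both limits, the lone WT library then being assumed to vary like the Δ*pkaA* pair. AN0250 had normalized counts of 381 and 399 against 472 and 475 in the WT, with a log2 fold change of −0.28 (SE 0.12, adjusted p = 0.0748, limma). AN2358 had 1146 and 1137 against 852 and 1085, with a log2 fold change of 0.25 (SE 0.14, adjusted p = 0.148, limma). AN2358 lies next to *xlnD*, which encodes a beta-xylosidase, an enzyme that releases xylose from short xylan fragments. In contrast to AN2358, *xlnD* fell in the Δ*pkaA* strain, with means of 138.9 against 477.6 and a log2 fold change of −1.77 (SE 0.14, adjusted p = 7.66e-05, limma). AN0250 and AN2358 each overlap a gene of the opposite strand, by 96 and 197 bases. The summed mean of the 5 genes was 12949 in the Δ*pkaA* strain against 120384 in the WT, and nearly all of this difference belonged to AN6412 and AN4148.

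**Figure D2:**
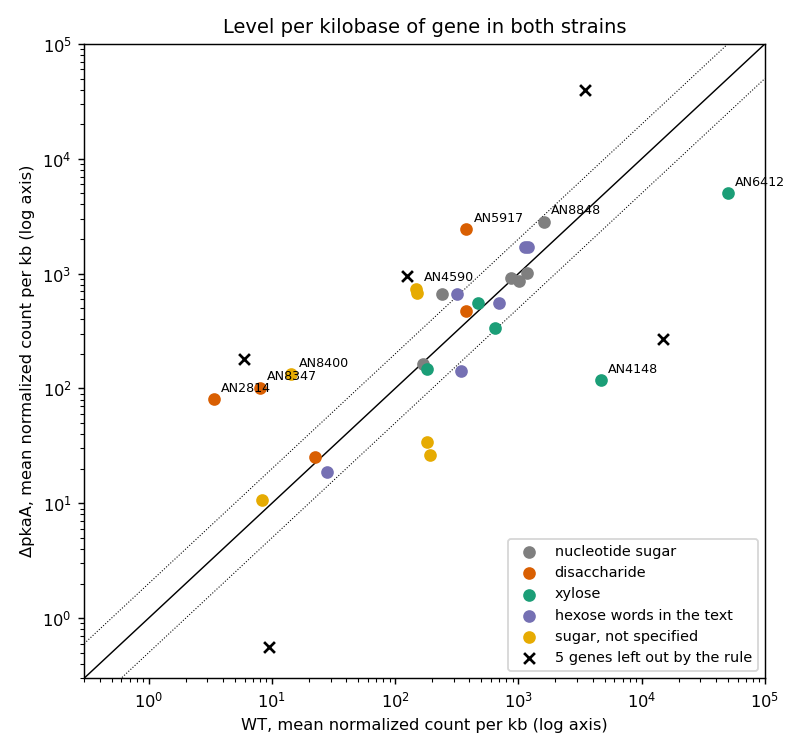
Mean normalized count per kilobase of gene in the WT (horizontal) and the ΔpkaA strain (vertical), both on log axes, for the 28 genes by annotated substrate and for the 5 glucose transporter genes left out by the rule (crosses); the solid line marks equal levels and the dotted lines 2-fold. AN6412 has the highest level of the 28 genes in both strains, 50379 and 5046 per kilobase, and AN4148 lies farthest below the line of equal levels.

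Hexoses stood in the text of 6 genes, and this group includes AN1085 and the 2 genes named at the outset that entered by words alone. AN8122, whose orthologs are annotated with hexose transport and the response to drugs, fell in the Δ*pkaA* strain. Its normalized counts were 301 and 287 in the Δ*pkaA* libraries and 703 and 702 in the WT libraries. The pairs were tight and well apart, with a log2 fold change of −1.25 (SE 0.12, adjusted p = 0.00014, limma). AN8122 shares 49 bases with AN8123 on the opposite strand, which went the other way, with means of 11077 in the Δ*pkaA* strain against 2627 in the WT. AN1797, annotated with transport of fructose, glucose and mannose, had 1315 and 1308 in the Δ*pkaA* libraries and 1545 and 1793 in the WT libraries. Its strains did not overlap, but the log2 fold change of −0.34 (SE 0.11, adjusted p = 0.0292, limma) did not reach the limits. AN4277, whose orthologs transport glucose, was weakly expressed, with 56.9 and 39.7 against 80.4 and 63.5 and a log2 fold change of −0.58 (SE 0.28, adjusted p = 0.112, limma).

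Of the 2 genes without sugar transport in their text, AN7049 just passed the 2-fold limit, with means of 2320 in the Δ*pkaA* strain against 1124 in the WT (2.06-fold). It could not be tested, and an overlap of the strains is possible: its WT libraries held 1198 and 1051, and with Δ*pkaA* libraries up to 3-fold apart the lower of these could hold 1160. AN1085 (*sey1*) and AN11956 had log2 ratios of 0.49 and 0.59, were not tested either, and could overlap in the same way. Without AN7049 and AN11956, 7 of 26 genes were higher and 5 lower at the 2-fold limit.

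The nucleotide sugar transporter genes, which serve glycan synthesis inside the cell, had the lowest median size of the log2 ratio of the groups, at 0.23. Of 6 genes, 1 was higher by 2-fold or more in the absence of *pkaA* and 5 were inside the limit, with a median log2 ratio of 0.01. The exception was AN4068, whose orthologs carry UDP-galactose and UDP-glucose into the endoplasmic reticulum. It had normalized counts of 875 and 1017 in the Δ*pkaA* libraries and of 332 and 359 in the WT libraries, and it rose with a log2 fold change of 1.45 (SE 0.13, adjusted p = 0.000112, limma). *gmtA* (AN8848), a putative GDP-mannose transporter gene, had a mean of 5391 in the Δ*pkaA* strain and normalized counts of 3202 and 2880 in the WT libraries, a 1.77-fold difference that was not tested and for which the libraries could overlap. The second putative GDP-mannose transporter gene, AN9298, had 251 and 237 against 237 and 264, and its strains overlapped (log2 fold change −0.04, SE 0.15, adjusted p = 0.835, limma). The level of *gmtA* per kilobase exceeded that of AN9298 in both strains, at 2840 against 164 in the Δ*pkaA* strain and 1602 against 169 in the WT.

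The other 3 genes of this group are annotated with transport of nucleotide sugars into the Golgi apparatus or with a sugar symporter there. AN4209 had normalized counts of 1584 and 1542 in the Δ*pkaA* libraries and of 1439 and 1562 in the WT libraries, which overlapped (log2 fold change 0.06, SE 0.10, adjusted p = 0.608, limma), and it shares 163 bases with a gene of the opposite strand. AN10676 and AN10689 had log2 ratios of −0.24 and −0.22, were not tested and could overlap between the strains. Among the 27 genes that could be matched to the RefSeq gene table, these are the only 2 that are neighbours of each other. They lie on chromosome V in the same orientation with 404 bases between them.

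Sugar transport with no substrate is the description of 6 genes, and this group moved in both directions. AN8400 (chromosome V, start 365800 and stop 368048, minus strand) had normalized counts of 281 and 314 in the Δ*pkaA* libraries and of 21.1 and 43.7 in the WT libraries. The strains were well apart although the WT libraries were not close to each other, and the gene rose with a log2 fold change of 3.25 (SE 0.34, adjusted p = 0.000259, limma). AN4590 had 1556 and 1490 against 319 and 293 in the WT, and it rose with a log2 fold change of 2.31 (SE 0.11, adjusted p = 1.08e-05, limma). AN1865 had 1122 and 1121 against 256 and 241, and it rose with a log2 fold change of 2.17 (SE 0.11, adjusted p = 1.45e-05, limma). The libraries of a strain lay close together for both AN4590 and AN1865, and these genes had the lowest adjusted p of the 19 genes tested.

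In the same group, AN2475 and AN9173 fell. AN2475 had normalized counts of 56.9 and 58.0 in the Δ*pkaA* libraries and of 280 and 549 in the WT libraries, and its log2 fold change was −2.75 (SE 0.31, adjusted p = 0.000361, limma). AN9173 had 70.6 and 63.1 against 280 and 423, and its log2 fold change was −2.35 (SE 0.24, adjusted p = 0.00021, limma). For both genes the Δ*pkaA* libraries were alike and below either WT library, whereas the WT libraries differed from each other. AN3199, a major facilitator superfamily gene, was expressed near the lower limit of the test, with 21.6 and 17.3 against 11.5 and 18.7, and its strains overlapped (log2 fold change 0.37, SE 0.38, adjusted p = 0.422, limma).

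**Figure D3:**
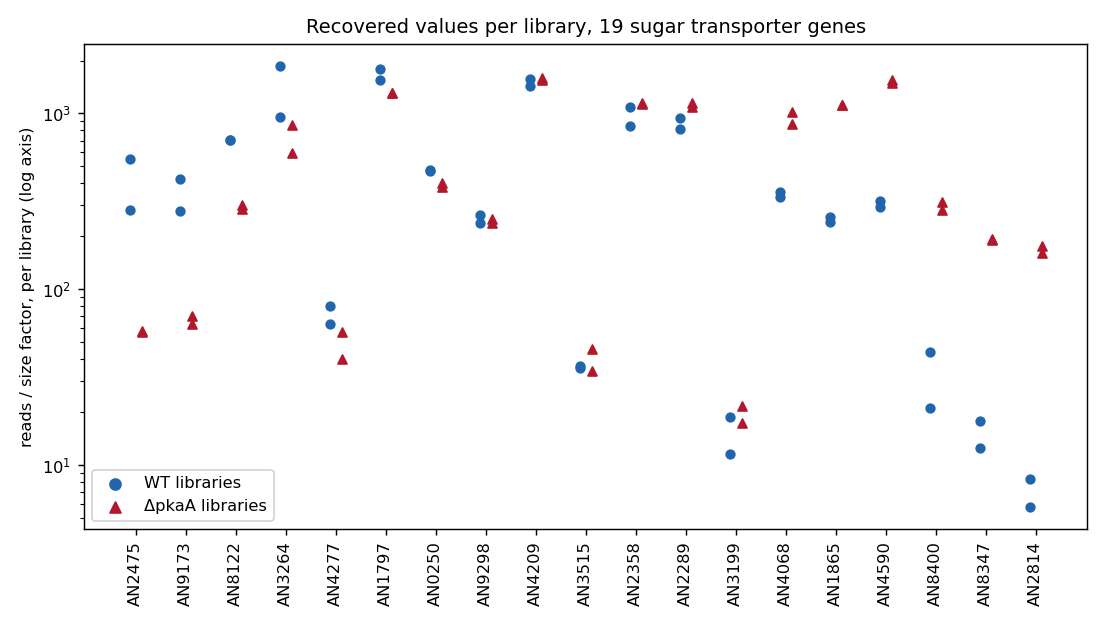
Normalized counts recovered for each library (log axis) for the 19 tested genes, ordered by the ratio between the strains, with circles for the 2 WT libraries and triangles for the 2 ΔpkaA libraries. The strains overlap only for AN9298, AN4209, AN3515 and AN3199, and the WT libraries lie far apart for AN2475, AN3264 and AN8400.

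The spread between libraries was larger in the WT. WT library b was at least 1.4 times library a for 7 of the 19 genes (AN2475, AN9173, AN3264, AN3199, AN8400, AN8347 and AN2814), and the median of this ratio was 1.15 for the 19 genes and 1.02 for all genes tested. Over all genes, the ratio of WT library b over a depended on the level: its median was 1.22 at WT means from 5 to 20 and 0.98 at means from 500 to 1300. In the Δ*pkaA* strain the corresponding medians of library a over b were 1.08 and 0.996, and 2 of the 19 genes differed by at least 1.4-fold between the libraries. With cyclic loess scaling, which removes such a dependence on level, none of the 19 genes changed its call. The median SD within a strain was 0.17 on the log2 scale for the 19 genes and 0.14 for all genes tested.

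The gene that contributed most reads changed the total of the group. The summed mean of the 28 genes was 49564 in the Δ*pkaA* strain against 144101 in the WT, and AN6412 alone made up 20.8% and 71.5% of these sums. Without AN6412, the sums were 39250 and 41127. Per kilobase of gene, the order of the genes also differed between the strains: AN5917 ranked 3 of the 28 genes in the Δ*pkaA* strain against 12 in the WT, AN4590 ranked 9 and 22, and AN1865 ranked 10 and 21. *gmtA* kept a high place, at 2 and 3. The genes of cellobiose transport remained among the lowest even after their rise, with AN8347 at 22 and AN2814 at 23 in the Δ*pkaA* strain, and their levels there were 101 and 80.2 per kilobase.

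**Figure D4:**
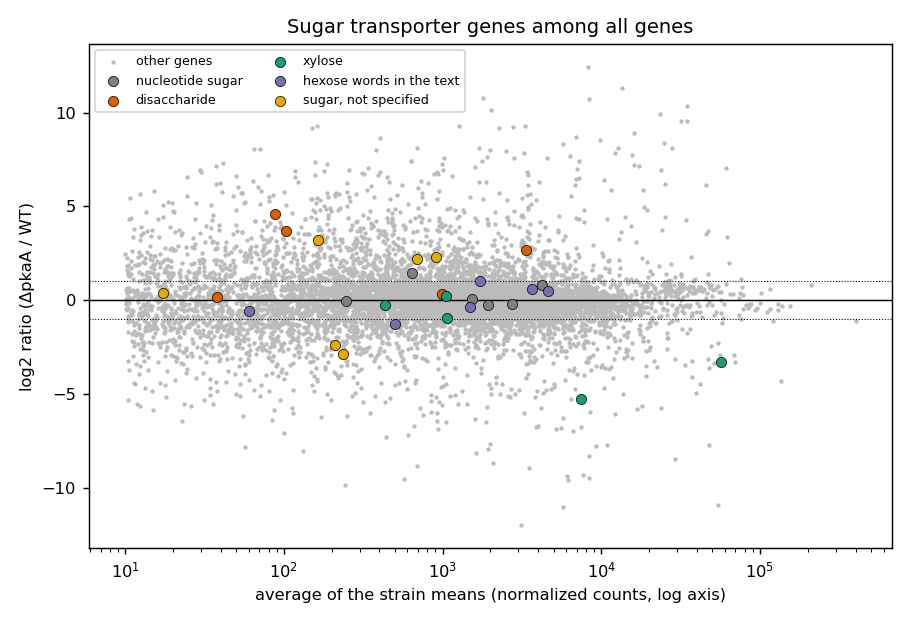
Log2 ratio of the strain means (ΔpkaA over WT) against the average of the means (log axis) for genes with an average of at least 10, with the 28 sugar transporter genes coloured by annotated substrate and dotted lines at 2-fold. The sugar transporter genes spread over the range of levels from 17.3 (AN3199) to 56644 (AN6412), and those inside the limit lie within the dense band of other genes.

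The 5 glucose transporter genes left out by the rule give the context of glucose uptake. AN8737 is described as a high-affinity glucose transporter active in hyphae when glucose is limiting. It rose, with normalized counts of 389 and 367 in the Δ*pkaA* libraries and of 9.57 and 15.6 in the WT libraries (log2 fold change 4.84, SE 0.28, adjusted p = 2.2e-05, limma). AN6669, the high-affinity transporter of germinating conidia, had means of 84208 in the Δ*pkaA* strain against 7336 in the WT, whereas AN5860, the low-affinity transporter, had means of 586.2 and 32755. Per kilobase, AN6669 was above all 28 genes in the Δ*pkaA* strain, and AN6412 was above all 5 of these genes in the WT, at 50379 against 14950 for AN5860. Like AN5917, AN6412 and AN4148, AN6669 and AN5860 have no test.

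The enzymes that act first on imported sugars are another part of the same route, and 14 genes were listed by words for them. The words also took in genes of other steps or without catalytic activity. These are AN3223 (a putative 6-phosphofructokinase), AN2951 and AN4727 (UDP-glucose 4-epimerases, the first putative), and the non-catalytic AN4255 and AN2180. Of the 13 with an average of at least 10, 1 was at least 2-fold higher and 2 were at least 2-fold lower. This was 23.1% in either direction, against 32.7% of all genes. The listed genes of the xylose route itself lay inside the 2-fold limit. AN0423, the putative D-xylose reductase that reduces xylose to xylitol, had a log2 fold change of −0.83 (SE 0.12, adjusted p = 0.00113, limma). For AN9064, the xylitol dehydrogenase, it was −0.14 (SE 0.10, adjusted p = 0.271, limma). AN8790, the putative D-xylulokinase that passes the sugar into the pentose phosphate pathway, had means of 2173 and 1133. This was 1.92-fold higher in the Δ*pkaA* strain, just inside the limit, and was not tested. AN3312, a putative L-xylulose reductase of the arabinose route, rose (log2 fold change 1.86, SE 0.12, adjusted p = 2.95e-05, limma). AN7995, a putative ribokinase, and AN4255, an atypical hexokinase without catalytic activity, fell, with log2 fold changes of −1.30 (SE 0.13, adjusted p = 0.000211) and −1.63 (SE 0.12, adjusted p = 6.31e-05) by limma. The hexokinase and glucokinase genes AN7459 and AN8689 had log2 ratios of means of 0.32 and −0.07.

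Regulators of carbon source use were sought by 13 symbols, of which 3 were matched. *xlnR*, the activator of xylan and xylose genes in *Aspergillus*, had normalized counts of 809 and 932 in the Δ*pkaA* libraries and of 509 and 523 in the WT libraries, with a log2 fold change of 0.75 (SE 0.12, adjusted p = 0.00151, limma), which is under the 2-fold limit. *creA*, the repressor of carbon catabolite repression, had means of 4880 and 17652, and *creB*, a ubiquitin protease of the same system, had means of 3091 and 1439. Neither was tested.

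The 27 genes that could be matched to the RefSeq gene table lay on 8 chromosomes, with between 1 gene on chromosome IV and 6 on chromosome II. Some of the changed genes had a neighbour that differed in the same direction: AN2813, an oxidoreductase gene beside AN2814, had means of 1858 in the Δ*pkaA* strain against 32.3 in the WT, AN5918, a catalase gene beside AN5917, had means of 23548 and 2432, and AN8348, a gene of a putative G protein-coupled receptor beside AN8347, had means of 2813 and 551. *bxlB*, an arabinofuranosidase gene of xylan degradation beside AN8400, had means of 2.00 and 1.48, too low for a comparison. In contrast to AN8400, its other neighbour *pmcC* was lower in the Δ*pkaA* strain, with means of 376.8 against 774.6 in the WT. The log2 fold change of *pmcC* was −1.04 (SE 0.11, adjusted p = 0.000296, limma). For the sugar transporter genes at least 2-fold apart, 9 of 25 neighbours, or 36%, were at least 2-fold apart in the same direction. For all genes at least 2-fold apart the share was 34.8%, so the sugar transporter genes were close to the background in this respect.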

How the data were processed

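RNA-seq was done on 2 samples of each strain. According to the labels and the study's methods, TruSeq v2 libraries, which do not mark strand, were read as 100-base reads, aligned with bowtie2 to the AspGD reference, counted with HTSeq and compared with DESeq; their versions, the genome release and how the technical replicates of each sample entered the counts are not given in these sources. For each gene and strain, the authors deposited a signal, the normalized count (reads over the size factor of the library) averaged over the libraries, with gene starts and stops, which carry no chromosome or build. Which column is which strain was read from a supplementary table header of the study. The authors' columns of fold change, p-value and q-value, and a second deposited table of genes under a p-value, were not used.

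The members, the other lists and the tests were chosen with earlier results of these data known. Genes were named where the text gives a substrate or symbol, or among the 8 largest rises or falls with an average of at least 50, the 5 highest means, or those next to the 2-fold limit; further genes were named after their values were seen. Ratios are of the Δ*pkaA* mean over the WT mean; genes with an average under 10 were left out of shares.

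Reads per library were recovered where 1 pair of whole reads gave the mean to a tolerance of 5.2e-05, or where only 1 such pair had libraries within 3-fold. Of 10361 Δ*pkaA* means above 0, 5008 had a single pair and 1663 a single pair within 3-fold, up to means of 1800; of 10381 WT means, 7526 and 1201, up to 4000. Among single pairs with means from 200 to 800, 0 of 1882 in the Δ*pkaA* strain and 11 of 1945 in the WT differed by over 3-fold. In simulated means, 6564 and 8779 splits came back right and 0 wrong. The simulated libraries of a strain differed only by sampling and a small dispersion, the same at all levels. They lacked the shift with level seen in the WT, so errors from libraries over 3-fold apart were hardly tested. limma (3.58.1, R 4.3.3) was fitted with a mean-variance trend to log2(value + 1), which understates changes of low genes, by strain, with Benjamini-Hochberg adjustment over 5620 genes. In data simulated in the same way for 5583 genes it called 0 of 5396 unchanged genes, 14 of 43 changed 2-fold and 33 of 36 changed 3-fold. These counts hold for that small spread only. High means could not be split, so the genes tested leave out many of the most expressed. The limit was lower in the Δ*pkaA* strain, where 3690 means were not split, against 1654 in the WT. A gene can therefore be left out for a Δ*pkaA* mean that would have been split in the WT. The effect of this on the shares called higher and lower was not tested. P-values set the difference between the strains against the spread between the libraries within these strains.

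Chromosomes, symbols and neighbours came from RefSeq (ASM1142v1; 9971 of 10930 listed genes and 27 of 28 members matched); its coordinates were not used. Protein and promoter sequences were not analysed here. Tables were made with pandas 2.3.3, NumPy 2.4.6 and SciPy 1.17.1 under Python 3.11.15, and plots with matplotlib 3.10.9.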

Additional observations from a re-analysis of the deposited data

How the results depend on the processing

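The 13 sugar transporter genes at least 2-fold apart, their directions and the limma counts were recomputed with other pseudocounts, filters, scalings, priors and limits, without 1 library at a time, and without AN11956 and AN7049 (chosen after seeing the data). Counts and medians of the groups stayed within 1.5 times, or kept their direction, in 131 of 133 recomputed values. The exceptions were the sugar transporter genes called higher, which were 3 instead of 6 when only means under 800 (Δ*pkaA*) and 1500 (WT) were split, since fewer genes were then tested, and all genes called lower, which were 1482 instead of 983 with no fold limit. Some of the 131 values could not have changed. All 28 genes have an average of at least 10, so lifting that filter left their ratios in place. AN11956 and AN7049 were not tested, so leaving them out could not alter the limma counts. Leaving out 1 library gave 9 to 10 sugar transporter genes called, 6 to 6 higher and 3 to 4 lower, and 1346 to 1995 genes called over all, 609 to 997 higher and 717 to 1057 lower. Of the single genes, AN3264 alone changed its call (−1.37 without WT library a), and 318 other recomputed values did not change. These include ratios of means of the untested genes, which kept their place at the 2-fold limit but have no limma call. The scalings of the strain means moved the median log2 ratio of all genes by less than 0.1, whereas setting the medians of the 4 libraries equal lowered every limma fold change by 0.12 (their median from −0.05 to −0.17). No call among the 19 genes changed with it, and AN4209, which did not pass, went from 0.06 to −0.06. No paired analysis was possible because the recovered libraries could not be tied to the replicate numbers of the labels. The reads of genes with high means, among them AN6412, AN4148 and AN5917, could not be split, so that their differences have no replicate error, and at 6 to 42 reads per WT library the folds of AN2814, AN8347 and AN8400 are imprecise.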

Other observations

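Amino acid transporter genes were listed by the same kind of words, as 34 genes. The words also took in genes that are not plasma membrane transporters. Among these are AN4543 (a lysine methyltransferase by its orthologs), AN1845 (a chaperone of the endoplasmic reticulum) and AN7437 (export from the vacuole). The values below are for the whole list. Between the means, 10 were higher by 2-fold or more in the Δ*pkaA* strain and 5 lower by as much, 44.1% in either direction, with a median log2 ratio of 0.24, against 46.4% and 0.20 for the sugar transporter genes. Over all genes with an average of at least 10, the share in either direction was 32.7%. Of 19 amino acid transporter genes tested by limma, 4 rose and 3 fell. This was 36.8% in either direction, close to the 33.4% of all genes tested. AN6770 had normalized counts of 1365 and 1540 in the Δ*pkaA* libraries and of 87.1 and 126 in the WT libraries. AN2043 went the other way, with 54.9 and 44.8 against 368 and 458. The proline transporter gene *prnB* had means of 6227 and 5833 and was not tested.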
